A study of Homo sapiens with 6 samples.

Results

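The measurements described here come from a single knockdown experiment, in which LS180 cells given an siRNA against the long non-coding RNA MYU were set against LS180 cells given a control siRNA. LS180 is an established human colorectal adenocarcinoma line. The 2 arrays of this pair are 2 of 6 in the series, whose other arrays hold a CTNNB1 siRNA, a MYC siRNA and a control array named for each of these. The control of the MYU pair is numbered 2 in its title and the other controls 1, and the treatment tag of the array titled for CTNNB1 reads CTNNB2. The value of a gene is the log2 value of the array titled LS180_siMYU minus that of the array titled LS180_siControl_2 (siMYU), averaged over the gene's probe sets, and all 14812 genes with a symbol entered. Apart from the siRNA, the labels give no difference between the arrays, and neither dose, time after transfection nor the number of cultures was stated.

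MYU is listed as VPS9D1-AS1, an RNA transcribed antisense to VPS9D1. The study's question was what the RNA does downstream of Wnt signalling and MYC, and published work on it centres on CDK6, a cyclin-dependent kinase that phosphorylates the retinoblastoma protein and so releases E2F factors from pocket proteins at the start of S phase. The RNA-binding protein HNRNPK and the microRNA miR-16, which represses several G1 regulators, belong to the same account. In intestinal epithelium Wnt signalling keeps crypt cells dividing, and cells leave the cycle as they differentiate.

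With 1 array a side there was no replicate, so no difference was tested, and "higher" and "lower" describe these arrays only. The deposited values were centred within the pair, so the arrays mirror each other around 0. GDF15, for example, stood at 0.76 in the MYU siRNA array and at -0.76 in its control, a difference of 1.52, and only such differences can be read. Expression levels are lost, so the identity of the cells could not be checked by level. Of 14 colorectal epithelium markers 9 were above 0, with EPCAM at 0.09 and KRT8 at 0.16, and 2 were 1.5-fold lower, GPA33 (-0.80) and KRT20 (-0.73). The 6 fibroblast and 6 endothelial markers lay within 1.5-fold, and of 7 leukocyte markers LYZ was higher (0.74). In this pair the middle 90% of genes lay between -0.34 and 0.30. A set of 95 genes from tissue-restricted families, olfactory receptors among them, had a standard deviation of 0.10 and a largest absolute value of 0.33.

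The targeted RNA was examined first. VPS9D1-AS1 was 1.41-fold lower in the MYU siRNA array (-0.50), outside the range of the tissue-restricted genes but short of 1.5-fold. It ranked 291 from the lowest of 14812 genes. Its value was -0.53 with CTNNB1 siRNA and -0.24 with MYC siRNA. MYC had a value of 0.04.

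Few genes differed by 2-fold, which is 1 on the log2 scale. At least 2-fold higher were 9 genes (0.0608% of all genes) and at least 2-fold lower 14 (0.0945%). At 1.5-fold, 0.58 on the log2 scale, 99 genes (0.668%) were higher and 179 (1.21%) lower. Either way this came to 1.88% of genes at 1.5-fold and 0.155% at 2-fold, where CTNNB1 siRNA gave 6.94% and MYC siRNA 0.857% at 2-fold. Genes above 0 made up 48.7% with MYU siRNA, 48.9% with CTNNB1 siRNA and 48% with MYC siRNA, and genes below 0 made up 48.3%, 48.9% and 49.4%. Whether the pairs differ in this was not tested, since none has a replicate.

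GDF15, a secreted member of the TGF-beta superfamily that cells make under stress, led the higher genes with 1.52. NEUROG3 (1.08), the factor that commits intestinal progenitors to the endocrine lineage, and PROX1 (1.06), a homeobox factor, were both below 0 in the other pairs, at -0.42 and -0.36 with CTNNB1 siRNA and at -0.19 and -0.49 with MYC siRNA. ARL6IP5 (1.07), a membrane protein of the endoplasmic reticulum, was at 0.72 with CTNNB1 siRNA and at -0.22 with MYC siRNA. MT1G (1.03), a metal-binding metallothionein, was lower in the CTNNB1 pair (-1.70). ASS1 (1.02), the argininosuccinate synthase of arginine synthesis, was higher there too (2.07). The remaining higher genes were small RNAs, SCARNA9 (1.10), SCARNA2 (1.03) and MIR3189 (1.46), and the last of these lies inside GDF15. Just short of 2-fold stood SNHG16 (0.95), CD70 (0.94), a ligand of the TNF family, and RAP1GAP2 (0.92), a GTPase-activating protein gene of 282 kb.

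The lowest value belonged to GPR15LG (-1.65), the ligand gene of the receptor GPR15, which was higher with CTNNB1 siRNA (2.34) and MYC siRNA (0.76). The receptor gene GPR15 was at -0.01 with MYU siRNA. KIF20B (-1.37), a kinesin of cytokinesis, and CDK6 (-1.17) were lower in all 3 pairs, with CDK6 at -1.12 and -0.91 with CTNNB1 and MYC siRNA. CRYBG1 (-1.19), ANTXR2 (-1.18), an anthrax toxin receptor, the deubiquitinase USP25 (-1.17) and MBOAT1 (-1.11), a lysophospholipid acyltransferase, were not 1.5-fold lower in either other pair. The stress kinase MAP3K20 (-1.15) and RHOBTB3 (-1.10) were also lower with CTNNB1 siRNA, at -0.93 and -1.81. PDHB (-1.09), the beta subunit of pyruvate dehydrogenase, was the only 1 of 6 measured members and regulators of its complex past 1.5-fold. The others lay between -0.17 and 0.18. Of 12 genes listed 6 were measured, and the list was made after values were seen. The proteases CTSE (-1.08) and CTSB (-1.04) and the Hippo pathway scaffold WWC1 (-1.04) closed the list with MIR4653 (-1.15). CTSE was higher by 2.49 with CTNNB1 siRNA.

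**Figure D1:**
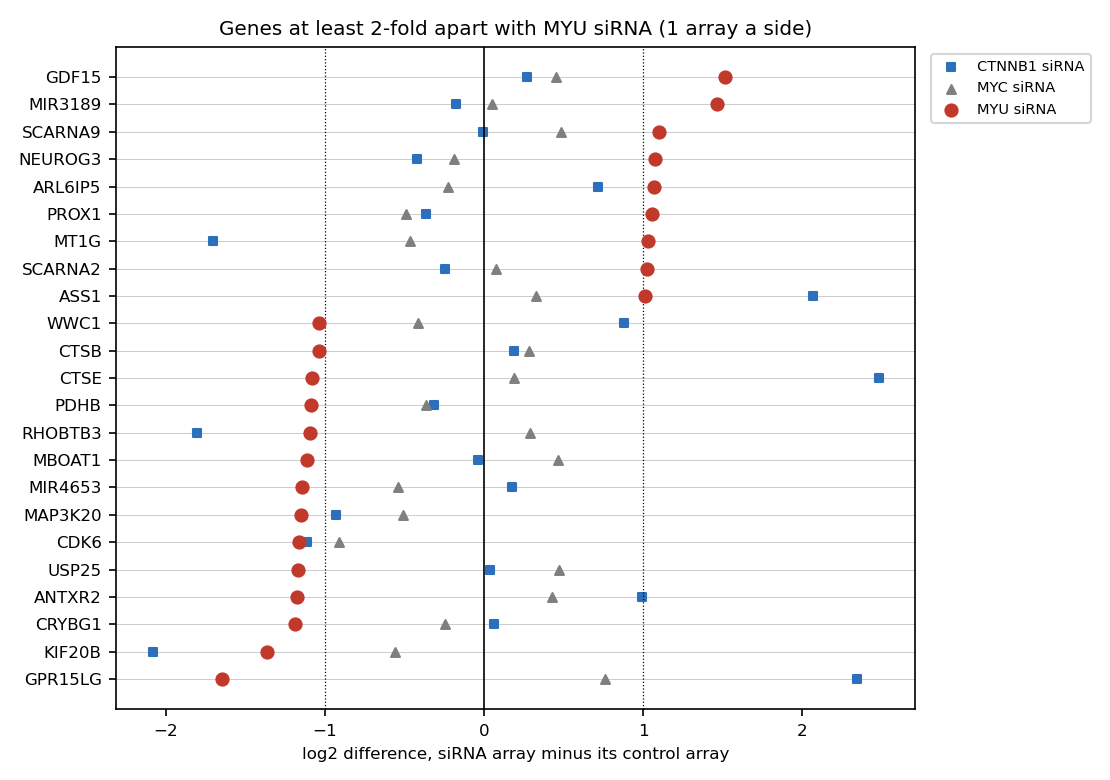
Log2 difference between siRNA and control array (x axis) for the 23 genes at least 2-fold apart with MYU siRNA (red circles), with the same genes in the CTNNB1 (blue squares) and MYC pairs (grey triangles), 1 array a side. Dotted lines mark 2-fold, and GDF15 at 1.52 and GPR15LG at -1.65 are the extremes of the MYU pair.

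Gene length went with the values in this pair. Among protein-coding genes the 13 that were 2-fold lower had a median span in the genome of 113 kb, 7 of them over 100 kb, and the 6 that were higher had 12.1 kb, against 26.7 kb for all 11911. At 2-fold the 6 were 0.0504% and the 13 were 0.109% of these genes, and at 1.5-fold 0.646% were higher and 1.41% lower. The genes were then split into 10 equal groups by length. In group 1, the shortest, 13 were at least 1.5-fold higher and 3 lower. In group 8, from 55.9 to 88.4 kb, 3 were higher and 30 lower, and in group 10 there were 4 and 24. The share of genes below 0 was 40.6% in group 1 and 58.6% in group 9. An excess of lower genes in group 8 was not particular to this pair. With CTNNB1 siRNA 106 genes of group 8 were 1.5-fold higher and 173 lower, and with MYC siRNA 30 and 77. In group 10 the other pairs had no such excess, with 100 higher and 76 lower for CTNNB1 siRNA and 32 and 27 for MYC siRNA. Spearman's rho across protein-coding genes was -0.17, against -0.01 and 0.02 in the CTNNB1 and MYC pairs. It was -0.05 across 1387 long non-coding RNA genes and 0.22 across 93 tissue-restricted protein-coding genes, so the trend was not seen in every class. Genes are not independent replicates, and long and short genes may also differ in level, which could not be checked.

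Taking out its running median moved a gene by at most 0.04, and 6 higher (0.0504%) and 13 lower (0.109%) protein-coding genes were again counted at 2-fold. Values near 0 could change sign, as CCND3 did from -0.00 to 0.02, and the enteroendocrine median moved from 0.03 to 0.01. CDK6 was then at -1.15, GDF15 at 1.49 and GPR15LG at -1.67. This adjustment follows the median of all genes and leaves a rho of -0.06, so a steeper trend among well expressed genes would remain. For gene lists, counts are therefore also set beside the number that protein-coding genes of the same length groups gave on average, called the length-matched number below. The lists were written with earlier results of these data known, so their counts are descriptions and support nothing by themselves.

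**Figure D2:**
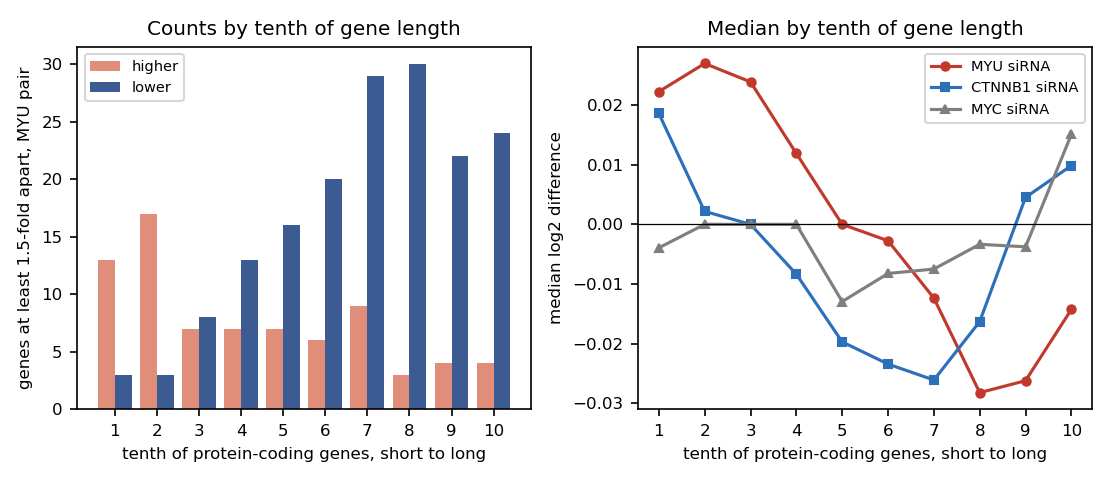
Left, number of protein-coding genes at least 1.5-fold higher (orange) or lower (blue) with MYU siRNA in each of 10 equal groups by gene length, short to long. Right, median log2 difference by group in the MYU, CTNNB1 and MYC pairs. Lower genes outnumber higher ones from group 3 on, with 30 against 3 in group 8.

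Most G1 to S regulators were below 0, and the largest differences were in the kinase CDK6, RBL1, E2F7 and RB1. Of 20 measured, 15 were below 0, 4 at least 1.5-fold lower and 1 higher, and the middle value was -0.29. The length-matched numbers were 9.99, 0.306 and 0.112, and the median of all genes was 0. Of the kinases, CDK2 stood at -0.39 and CDK4 at 0.24. All 3 pocket protein genes were below 0. RBL1, which restrains E2F factors, had a value of -0.84, RB1 of -0.80 and RBL2 of -0.37. E2F7 (-0.84) and E2F8 (-0.29), repressors of E2F targets, were below 0. The activators E2F1, E2F2 and E2F3 were at 0.12, -0.13 and 0.06, and the E2F partners TFDP1 and TFDP2 at -0.29 and -0.37. Among cyclins CCNE2 stood at -0.38, CCND1 at -0.25, CCND3 at -0.00 and CCNE1 at 0.03. CCND2 was at 0.64, where its probe sets disagreed (0.13 and 1.15). RB1 had a value of 0.08 with MYC siRNA, and CDK4 and E2F1 were at -1.88 and -1.39 with CTNNB1 siRNA.

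**Figure D3:**
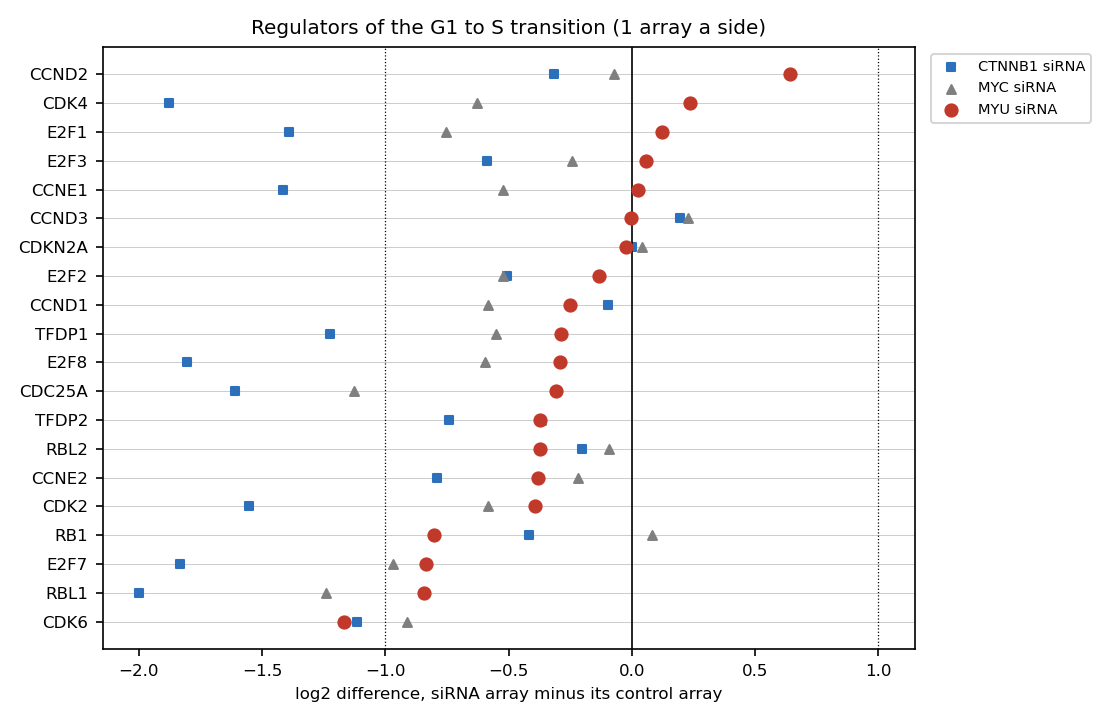
Log2 difference (x axis) of 20 regulators of the G1 to S transition with MYU (red circles), CTNNB1 (blue squares) and MYC siRNA (grey triangles), 1 array a side. CDK6 is lowest with MYU siRNA at -1.17, and CDK4 and E2F1 lie above 0 with MYU siRNA and below 0 with the others.

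Published targets of miR-16 were read beside CDK6. The mature sequence of MIR16-1 from RefSeq (GRCh38.p14, chr13:50049027-50049048, - strand) is shown because its seed, bases 2 to 8 in capitals, is what such targets pair with.
hsa-miR-16-5p: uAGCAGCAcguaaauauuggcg
Of 19 targets measured 13 were below 0, against a length-matched 9.83, and CDK6 alone was 1.5-fold lower (length-matched 0.336). CDK6, CCND1, CCND3, CCNE1, E2F3 and CDC25A are in the G1 to S list as well. BCL2, an inhibitor of cell death, stood at -0.37, the kinase WEE1 at -0.35, the phosphatase CDC25A at -0.31, CHEK1 at -0.28 and CCND1 at -0.25. HMGA1 was highest at 0.34. The list median was -0.20. Taking the least different probe set of each gene brought it to -0.05. MIR16-1 had a value of -0.01 and HNRNPK of -0.13. Of 23 genes of the hnRNP class 13 were below 0 (length-matched 10.7), with a median of -0.07. PTBP3 (-0.65), a splicing repressor, was the only one of them 1.5-fold lower (length-matched 0.296).

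Genes of DNA replication were lower as a group by small amounts. Of 64 genes listed 33 were measured. Of the 33, 29 were below 0, 7 past 1.5-fold in that direction and 0 in the other. Their median was -0.36, and the length-matched numbers were 16.2 and 0.544. Licensing and origin firing genes were led by MCM8 (-0.79), CDC7 (-0.61), the kinase that fires origins, and MCM10 (-0.61), and fork genes by WDHD1 (-0.71), GINS2 (-0.64) and GINS3 (-0.59). The maintenance DNA methyltransferase DNMT1 was at -0.60. Above 0 were TYMS (0.14), DUT (0.12), SLBP (0.11) and CDT1 (0.11). CTNNB1 siRNA gave the list a median of -1.70 and MYC siRNA one of -0.82, and there all 33 genes were below 0 except 0.

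Mitosis genes were shifted less. Of 55, 48 were below 0 and 2 passed 1.5-fold. The median was -0.26, and the length-matched numbers were 27.1 and 0.856. These 2 were CDC25B (-0.95), the phosphatase that starts mitosis, and NUSAP1 (-0.66), a spindle protein. Kinetochore genes reached -0.56 (CENPI), and CDK1 itself stood at 0.33 and PLK1 at 0.11. Among 42 kinesins KIF20B was followed by the mitotic motors KIF14 (-0.73), KIF15 (-0.55) and KIF11 (-0.53), while KIF20A was at 0.10. At least 1.5-fold lower were 2 of the 42, against a length-matched 0.793. KNTC1 (-0.93), a kinetochore protein outside the list, was among the 20 lowest genes. In DNA repair 33 of 66 listed genes were measured. Of the 33, 31 were below 0 (length-matched 17.2) and BRIP1 (-0.70), a helicase partner of BRCA1, was 1.5-fold lower (length-matched 0.605). Of 58 centrosome and cilium genes 47 were below 0 (length-matched 31.9) and SASS6 (-0.60), needed for centriole assembly, was the 1 gene that was 1.5-fold lower, where the length-matched number was 1.19.

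Promoters of these genes were read in the RefSeq table (GRCh38.p14), which held 30 of the replication and 45 of the mitosis genes, over the 250 bases before the start. An E2F motif, TTTCCCGC or TTTGGCGC on either strand, was found in 9 of 30 replication promoters (30%), in 5 of 15 promoters of G1 to S regulators and in 536 of all 27305. The CHR element of cell cycle genes, TTTGAA or TTCGAA on either strand, was in 17 of 45 mitosis promoters (37.8%) and in 14.6% of all. These promoters are shown because each holds such a match, in capitals, and belongs to a member below 0: RBL1 (-0.84) and MCM6 (-0.41) with E2F matches, and HMMR (-0.48), a spindle protein, with adjoining CHR matches.
RBL1 chr20:37095998-37096247 (- strand): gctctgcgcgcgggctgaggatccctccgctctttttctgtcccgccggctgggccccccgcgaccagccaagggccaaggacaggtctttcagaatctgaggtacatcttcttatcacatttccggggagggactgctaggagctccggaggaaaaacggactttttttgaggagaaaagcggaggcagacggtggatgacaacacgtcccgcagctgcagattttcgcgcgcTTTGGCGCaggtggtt
MCM6 chr2:135876444-135876693 (- strand): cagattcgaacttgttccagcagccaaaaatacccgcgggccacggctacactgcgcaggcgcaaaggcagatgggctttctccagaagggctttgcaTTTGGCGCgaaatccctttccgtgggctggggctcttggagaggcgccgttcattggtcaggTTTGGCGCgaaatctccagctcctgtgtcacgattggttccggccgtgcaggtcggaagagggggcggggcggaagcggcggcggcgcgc
HMMR chr5:163460382-163460631 (+ strand): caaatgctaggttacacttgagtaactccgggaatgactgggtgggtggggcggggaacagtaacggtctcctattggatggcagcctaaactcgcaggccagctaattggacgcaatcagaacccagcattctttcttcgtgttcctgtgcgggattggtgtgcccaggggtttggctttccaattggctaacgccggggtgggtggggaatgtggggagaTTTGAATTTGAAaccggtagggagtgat
A match is a description of the letters only. Such letters also stood before genes above 0, such as E2F1 (0.12) and CDK1 (0.33).

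Targets of p53, the damage-responsive tumour suppressor, were the protein-coding list furthest above 0 after the metallothioneins. Of 33 genes listed 19 were measured, and CDKN1A and MDM2 were not among the 19. Of the 19, 17 were above 0, 6 of them by 1.5-fold or more, and the median was 0.36. The length-matched numbers were 9.69 and 0.164. After GDF15 came PLK2 (0.87), a kinase of the polo family, SESN1 (0.85), an inhibitor of mTORC1, TRIAP1 (0.74), the ceramidase ACER2 (0.63) and TP53INP1 (0.59). Of the targets that promote or restrain cell death 7 of 7 were above 0, between PMAIP1 at 0.15 and TRIAP1, an inhibitor of cell death. SPATA18 (-0.16) and RRM2B (-0.08) were below 0. Without GDF15 the median was 0.35. In the MYC pair 16 of the 19 were above 0 with a median of 0.32, and in the CTNNB1 pair 8, with -0.14. The p53 decamer was found in the 250 bases before the start of 2 of 16 promoters, those of AEN and PLK2. It was in 5.53% of all promoters. Of the replication genes, whose median was below 0, 5 of 30 promoters (16.7%) held it.

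Genes of the ATF4 and amino acid stress response, a list that also holds GDF15 and SESN2, gave a median of 0.12. Of 20 measured 15 were above 0, against a length-matched 10.3. At 2-fold 2 were higher, GDF15 and ASS1, and CTH (-0.79), the cystathionine lyase, was 1.5-fold lower. The length-matched numbers at 1.5-fold were 0.161 higher and 0.228 lower. ATF4 stood at 0.12, DDIT3 at 0.18, ASNS at 0.14 and TRIB3 at 0.05. Of the arginine pathway OAT was at 0.46, PYCR1 at 0.40 and ASL, the next enzyme after ASS1, at 0.35.

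Metallothioneins, small cysteine-rich proteins that bind zinc and copper, stood above 0 for 9 of 11 genes, and their median was 0.37. MT1G was followed by MT1F (0.86), MT2A (0.56), MT1X (0.52), MT3 (0.45), MT1E (0.37) and MT1H (0.29). MT1B (0.05), MT1L (0.00), MT1M (0.00) and MT4 (-0.00) did not differ beyond the spread of the tissue-restricted genes. For the 10 coding members the length-matched numbers were 5.70 above 0 and 0.109 higher by 1.5-fold. The genes are close copies and their probes may share transcripts, so these are not independent values. With CTNNB1 siRNA the same genes ran lower, with MT1X at -1.92 and a median of -0.43, and MT1F was at 0.89 with MYC siRNA. The metal response element is TGCACNC or TGCGCNC on either strand. The promoter table held 5 metallothionein genes, and MT1G and MT1F, the highest members, were not among them. The element was found before 5 of these 5 and before 24.7% of all genes. Measured protein-coding genes had it in 30.8% of promoters, and replication and mitosis genes, with medians below 0, in 50% and 44.4%. MT2A and MT1X are shown with their 7 and 4 matches in capitals. MT4 and MT1B, near 0 here, had 3 each.
MT2A chr16:56608334-56608583 (+ strand): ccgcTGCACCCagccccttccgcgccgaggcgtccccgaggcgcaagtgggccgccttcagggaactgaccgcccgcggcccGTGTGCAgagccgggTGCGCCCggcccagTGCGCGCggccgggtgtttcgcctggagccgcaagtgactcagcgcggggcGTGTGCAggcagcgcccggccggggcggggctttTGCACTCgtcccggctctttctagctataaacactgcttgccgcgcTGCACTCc
MT1X chr16:56682220-56682469 (+ strand): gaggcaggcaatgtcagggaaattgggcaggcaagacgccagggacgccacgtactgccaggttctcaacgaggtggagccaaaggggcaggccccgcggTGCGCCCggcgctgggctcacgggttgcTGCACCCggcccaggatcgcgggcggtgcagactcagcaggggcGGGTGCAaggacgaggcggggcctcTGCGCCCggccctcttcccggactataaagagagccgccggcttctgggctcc

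Small Cajal body RNAs, which guide chemical modification of spliceosomal RNAs, were the list with the highest median, 0.47. Of 21 measured 20 were above 0, 8 at least 1.5-fold higher, 2 of them 2-fold, and 0 lower, whereas 0.668% of all genes were 1.5-fold higher. After SCARNA9 and SCARNA2 came SCARNA9L (0.83), SCARNA17 (0.79), SCARNA6 (0.76), SCARNA5 (0.71), SCARNA7 (0.67) and SCARNA4 (0.61). Only SCARNA21 was below 0 (-0.06). SCARNA9L is a copy of SCARNA9, and without it the median was 0.44. By position alone, with strand not used, 11 lie within a measured gene. All 11 stood above that gene. SCARNA9 was at 1.10 where CEP295 was at -0.04, SCARNA7 at 0.67 where KPNA4 was at -0.71, and SCARNA22 at 0.57 where NSD2 was at -0.34. SCARNA5 and SCARNA6 share ATG16L1, which was at 0.08. With CTNNB1 siRNA 10 of 21 were above 0 (median -0.01), and with MYC siRNA 15 (median 0.16). Of other small non-coding RNAs, the telomerase RNA TERC was at 0.64, the RNase P RNA RPPH1 at 0.36 and RMRP at 0.31, and the 4 vault RNAs lay between -0.17 and -0.02. The yield of short RNAs in each array could not be measured from these values, and its part in the result was not tested.

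**Figure D4:**
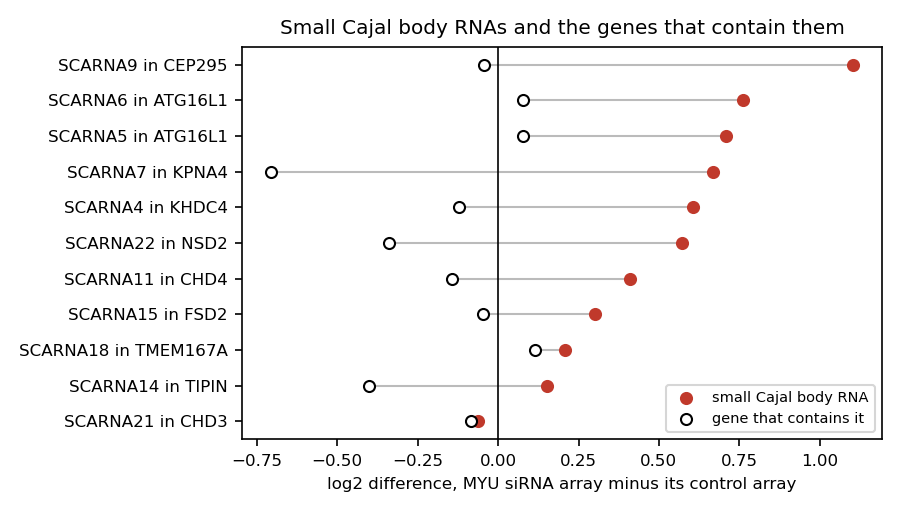
Log2 difference with MYU siRNA (x axis) of 11 small Cajal body RNAs (red) and of the measured gene that contains each (open circles), 1 array a side. Each RNA lies to the right of its containing gene, by the most for SCARNA7 in KPNA4.

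MicroRNA genes as a class lay near 0. Of 1022, 4 were at least 1.5-fold higher and 3 lower, 0.685% in all against 1.88% of all genes, and their median was 0.00. The mature sequences of the 2 that passed 2-fold are shown, with seeds in capitals, because both genes lie inside a longer gene (RefSeq, GRCh38.p14, + strand).
hsa-miR-3189-5p: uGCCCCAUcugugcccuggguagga
hsa-miR-3189-3p: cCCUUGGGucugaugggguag
hsa-miR-4653-5p: uCUCUGAGcaaggcuuaacacc
hsa-miR-4653-3p: uGGAGUUAaggguugcuuggaga
The 4 seeds differ from each other and from that of miR-16. The miR-3189 arms lie at chr19:18386570-18386594 and chr19:18386607-18386627, those of miR-4653 at chr7:101159482-101159503 and chr7:101159524-101159546. MIR3189 (1.46) lies in GDF15 (1.52) and is not an independent value. MIR4653 lies in AP1S1, which was not analysed here. Of 376 microRNA genes inside a measured gene, 8 lay in one that was 1.5-fold apart, and MIR3189 alone of these 8 was itself 1.5-fold apart. MIR4737 (-0.81) lies in HEATR6 (-0.56), and MIR571 (0.77) in ZNF141 (0.01).

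Host genes of small nucleolar RNAs included 11 of 13 above 0 and had a median of 0.28, where 48.7% of all genes were above 0 and 0.668% were 1.5-fold higher. Past 1.5-fold were SNHG16 (0.95) and DANCR (0.69). ZFAS1 stood at 0.48, SNHG5 at 0.42 and GAS5, which accumulates in arrested cells, at 0.30. With CTNNB1 siRNA the list ran far lower, with a median of -1.28 and GAS5 at -1.68. Cytosolic ribosomal protein genes, included 40 of 51 above 0 (length-matched 28.6), had a median of 0.13, and held 0 that were 1.5-fold apart. RPL11 (0.53), RPS16 (0.50) and RPS19 (0.49) were highest and RPL39L (-0.28) lowest. Genes of respiratory complexes II, III and IV and of ATP synthase, a list without complex I, included 18 of 22 above 0 (length-matched 12.1). Their median was 0.26, and the highest were UQCRC1 (0.46) and the ATP synthase inhibitor ATP5IF1 (0.46). Of 73 mitochondrial ribosomal protein genes 47 were above 0, against 38.9. With the length trend taken out the medians of the 3 protein-coding lists were 0.11, 0.24 and 0.05.

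**Figure D5:**
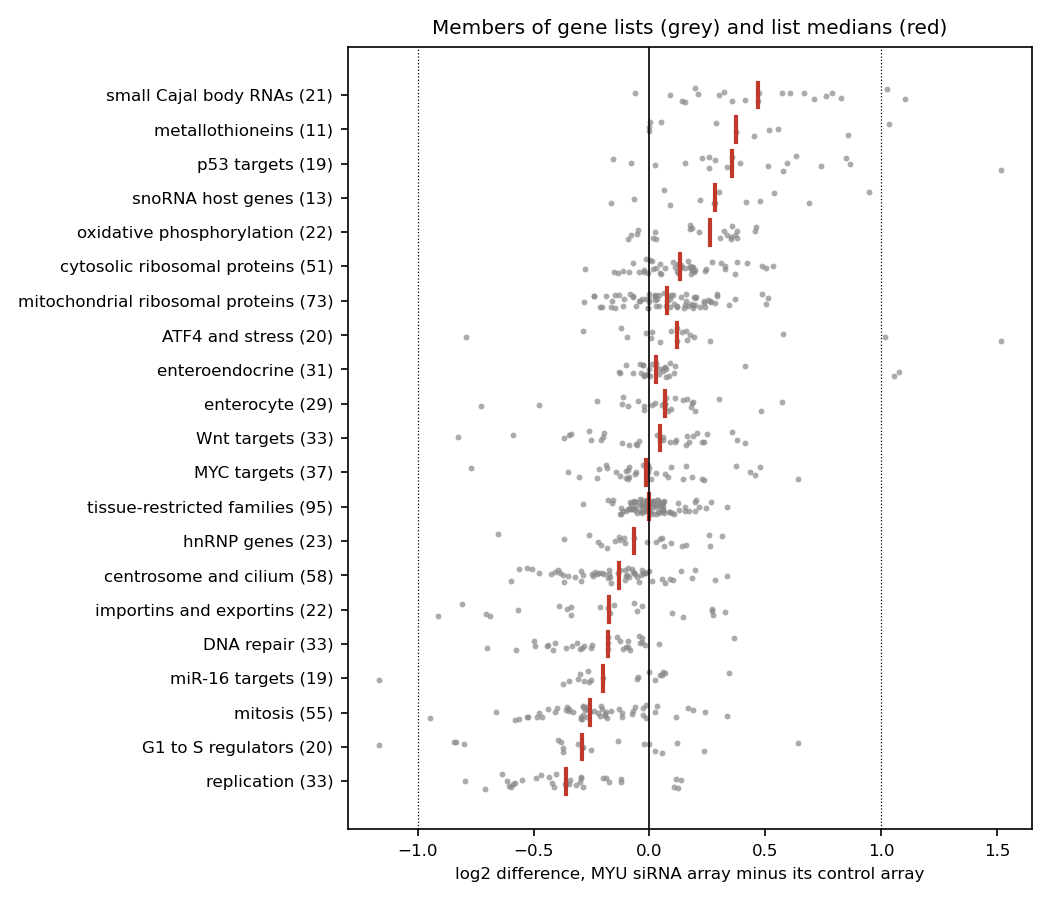
Log2 difference with MYU siRNA (x axis) for each measured member (grey points, vertical jitter only) of 21 gene lists, with the list median in red and the number of members in brackets. Dotted lines mark 2-fold. Of the lists shown, small Cajal body RNAs have the highest median (0.47) and replication genes the lowest (-0.36).

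Among endocrine genes the large values were in 2 of the factors and none in the products. NEUROG3 and PROX1 were the only 2 of 31 enteroendocrine genes past 1.5-fold (length-matched 0.251 higher and 0.301 lower). SOX4, a progenitor factor, followed at 0.41, and the other factors lay within the range of the tissue-restricted genes. The 18 hormone and granule genes lay between -0.13 (CHGA) and 0.11 (CCK). Their standard deviation was 0.07, against 0.10 for the tissue-restricted genes. Whether these products were expressed could not be checked, since levels are lost. ATOH1, the factor of the secretory lineage, was at 0.63, with TFF1 at 0.50, SPDEF at 0.37 and AGR2 at -0.44. The goblet list had a median of 0.02.

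Absorptive and crypt genes gave mixed values. KRT20 (-0.73), an intermediate filament of mature enterocytes, and GPA33 (-0.80), a colon epithelial antigen, were lower, whereas the brush border peptidase DPP4 (0.57) and CEACAM7 (0.48) were above 0, and the enterocyte median was 0.07. OLFM4 (0.66) was higher and LGR5 (-0.59) lower among 16 crypt genes (length-matched 0.0873 higher and 0.243 lower), whose median was -0.01. Of 33 Wnt targets 2 were 1.5-fold lower, CEMIP (-0.82) and LGR5 (length-matched 0.396), and AXIN2, the feedback target, stood at 0.06. Of 30 Wnt pathway components FZD6 (-0.75), a Frizzled receptor, was the only one 1.5-fold apart (length-matched 0.444 lower). In the MYC network MLX was at 0.75 and MXD1 and MGA at -0.53, and MYC targets had a median of -0.02.

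Several smaller groups were looked at only after their leading genes had been seen, so their counts, like those of the other lists, support nothing by themselves. Of 22 importins and exportins, which carry proteins through the nuclear pore, 4 were 1.5-fold lower: IPO9 (-0.91), KPNA3 (-0.81), KPNA4 (-0.71) and CSE1L (-0.69), against a length-matched 0.456, and 16 were below 0 against 12.1. Lysosomal genes numbered 15 of 18 above 0, against a length-matched 9.25, with GRN at 0.70 and NEU1 at 0.63, although CTSB and CTSE, also of the endolysosomal system, were among the lowest genes. Of 15 cathepsins these 2 were past 1.5-fold, against a length-matched 0.135 lower and 0.123 higher. CTSD and CTSA were at 0.42 and 0.56. Of 8 snaR RNAs 4 were 1.5-fold lower, led by SNAR-H (-0.91), where 1.21% of all genes were. They are near-identical copies, with SNAR-F at 0.30, and how far their probes share transcripts was not tested.

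In signalling and enzyme families a few members passed 1.5-fold. Of 31 MAP kinase pathway genes MAP3K20 and MAP3K2 (-0.61) were lower, against a length-matched 0.53. Of 52 ubiquitin-specific and OTU proteases USP25 and USP1 (-0.61), which deubiquitinates FANCD2 and PCNA, were lower, against a length-matched 0.984. The lipid acyltransferase LPCAT3 (-0.85) stood beside MBOAT1 among 14 lipid remodelling genes (length-matched 0.223 lower), where DGAT2 was at 0.55. Of 18 cytokine and NF-kappaB genes ICAM1 was higher (0.67), and IL33 (-0.63) and CXCL8 (-0.60) were lower with GPR15LG (length-matched 0.146 higher and 0.162 lower). The long non-coding RNA UCA1 had a value of -0.97, from probe sets at -1.75 and -0.18. LYZ, encoding lysozyme, which was listed as a leukocyte marker, also had discordant probe sets (0.14 and 1.34). CD68 was at 0.48 and 5 of the 7 leukocyte markers measured lay between -0.03 and 0.17.

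Neighbours of the targeted RNA differed little. VPS9D1, in which VPS9D1-AS1 lies, had a value of 0.08. Of 13 neighbours measured 0 were 1.5-fold apart, 7 were above 0 and 6 below, from CDK10 (-0.44) and CPNE7 (-0.43) to MC1R (0.24). Across 479 antisense RNA genes 1 (0.209%) was 1.5-fold apart, ZNF674-AS1 (0.63), and VPS9D1-AS1 had the lowest value of all 479. Across 457 LINC genes 2 (0.438%) were 1.5-fold lower, LINC00239 (-0.78) and LINC01106 (-0.74), where 1.21% of all genes were.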

How the data were processed

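Per the labels, LS180 total RNA extracted with TRIsure was biotin-labelled and put on Affymetrix arrays. How the scans were normalized is not stated in the labels. In the deposited table log2 values are centred within each pair of arrays, so that adding both arrays gives 0 to within 1e-06 for each probe set. Base 2 was assumed, since no label names the base.

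Of 44629 probe sets the platform annotation names 15835, all matched to RefSeq (GRCh38.p14) for symbols, gene types and lengths, giving 14812 genes. A gene's value is the mean difference of its probe sets, and 651 genes had several, with a median standard deviation of 0.06 between them. Genes were counted at 2-fold and 1.5-fold, with no test, since each side has 1 array. The length trend was the running median over 20 groups of protein-coding genes. The length-matched number of a list sums, over its coding members, the share called in the same one of 10 length groups. It is not matched on level.

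The members and lists were chosen with earlier results of these data known, and 5 of the lists after values were seen. Named are the genes past 2-fold, the 20 highest and lowest, up to 6 leading members of a list and all members of short lists, and a few further genes chosen after their values were seen. List members not found were not analysed here. The step that takes out the length trend was checked on simulated data. The software was Python 3.11.15 with pandas 2.3.3, numpy 2.4.6, matplotlib 3.10.9 and, for rank correlations, scipy 1.17.1.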

Additional observations from a re-analysis of the deposited data

Results flagged for a closer look

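Probe sets with no listed gene were outside the comparison. Of 28794 such probe sets, 13 were at least 2-fold higher and 8 at least 2-fold lower with MYU siRNA, 0.0729% in all, between -1.57 and 2.12. The highest of them exceeded GDF15, the highest named gene. The names of their transcripts were not analysed here.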

How the results depend on the processing

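The number of genes past 2-fold depended on the threshold and on the features counted. At 1.5-fold it was 278 in place of 23, with 99 higher and 179 lower, and over all probe sets, named or not, it was 48, with 24 in either direction. Protein-coding genes only, with or without the length trend taken out, gave 19, with 6 higher and 13 lower, and the probe set nearest to 0 or centring on the median gave 23. The median of miR-16 targets moved to -0.053 with the probe set nearest to 0. In an alternative added after seeing the data, the leading member of each list was left out. This moved 1 of 63 list medians by over 1 SD of the genes from tissue-restricted families, that of housekeeping genes from 0.04 to 0.14. That SD is a spread between genes of this pair and does not measure a spread between replicates. Spearman's rho with length was -0.18 for genes of 1 probe set, -0.16 without genes 1.5-fold apart and, in an alternative chosen after seeing the data, -0.054 for long non-coding RNA genes. Of 438 genes named or listed, 432 moved by under 1 SD of the genes from tissue-restricted families when the probe set nearest to 0 was used. The exceptions were B2M, BOP1, CCND2, CDC27, LYZ and UCA1. Protein length as a measure of length was not run. No arrays could be left out, with 1 a side. No paired analysis was possible because each group has 1 array. Precision is limited by the number of arrays.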
